A study of Homo sapiens with 18 samples.

Results

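COLO320HSR is a cell line established from a tumour of the large bowel, and its single array was set against those of 17 other cell lines labelled as colorectal cancer (CRC). It was chosen by its cell line label, so the comparison rests on 1 of 18 arrays. Among the 17 other lines, HUTU80 is a duodenal line. In each line, biotin-labelled total RNA was measured on 1 whole-transcriptome array, and levels are given as log2 intensities, on which 1 unit is a 2-fold step. COLO320HSR was grown in RPMI 1640 with serum, antibiotics, extra glucose and pyruvate, as were 7 of the other lines (NCIH716, MDST8, LS513, SNUC1, RCM1, KM12 and HCT116). The remaining 10 lines (OUMS23, HUTU80, CAR1, LS180, CL40, SW1463, SW948, HT55, SW48 and RKO) were grown in DMEM/F-12 with serum and antibiotics. No line was given a drug, an edited gene or a time point. The 17 lines are different lines and not replicates of a group, and COLO320HSR has no replicate, so every test asks whether it lies outside the spread of the panel and assumes that its own error is like that spread; the number of arrays limits the precision. Each array reads a whole culture, so fewer cells of a type and less RNA per cell cannot be told apart.

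MYC encodes a transcription factor that binds DNA with its partner MAX and promotes growth, ribosome production and cell division. It lies in a gene-poor stretch of chromosome 8 beside the long noncoding RNA gene PVT1, and COLO320HSR is known for carrying many copies of MYC in homogeneously staining chromosome regions, which its name records. CDX2 encodes a homeodomain transcription factor that specifies and maintains intestinal epithelium, and TFAP2B encodes an AP-2 transcription factor used in neural crest, kidney and limb development. DNA copy number was not measured in these data.

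Each gene was read from its probe set with the highest mean, and 13609 of 19774 measured genes exceeded a background level of 4.46 log2 units in at least 1 line. In COLO320HSR 9888 genes were above this level, against 9823 to 10373 in the other lines, and its array median was 3.67 in a panel range of 3.65 to 3.69. Over the variable genes its correlation with the other lines ran from 0.34 with CL40 to 0.54 with RKO, a description over genes that share an array. Its markers matched the tissue label only in part. Of 9 measured colorectal epithelial markers, 3 (CDX2, CDH17 and KRT20) were above background in COLO320HSR, against 1 to 9 in the other lines. Of 6 neuroendocrine markers (CHGA, CHGB, SYP, INSM1, SCG2 and SCG3) 0 were above background in COLO320HSR, where they read 3.21 to 3.61, against 0 to 5 in the other lines. Of 6 mesenchymal markers 3 were above background (VIM, ZEB1 and COL1A1). Of 4 leukocyte markers 1 was (PTPRC, at 6.40), and of 3 endothelial markers 0 were.

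MYC was higher in COLO320HSR than in any other line. Its level was 13.09 log2 units in COLO320HSR, against 9.42, 11.58 and 12.39 (lowest, median and highest) in the 17 other lines. The next lines were SNUC1 at 12.39 and RCM1 at 12.06, and MDST8 was lowest, so the panel as a whole expressed MYC at a high level and COLO320HSR lay 0.70 log2 units beyond its top. The difference from the mean of the others was 1.86 log2 units, against an SD of 0.81 between those lines. A second MYC probe set read 4.08 in COLO320HSR, under background, and differed by 0.67.

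CDX2 was also highest in COLO320HSR, by a wider margin. It read 11.44 log2 units in COLO320HSR, against 4.28, 7.02 and 8.89 (lowest, median and highest) in the 17 other lines. HT55 came next at 8.89, so that no other line came within 2.56 log2 units, and MDST8 was alone at background. The difference from the others' mean was 4.79 log2 units with an SD of 1.52 between them, and a second probe set gave 5.01. TFAP2B was present in COLO320HSR and at background everywhere else. It read 10.47 log2 units in COLO320HSR, against 2.81, 2.93 and 3.31 (lowest, median and highest) in the 17 other lines. Its 3 probe sets differed from the mean of the others by 2.63 to 7.46 log2 units. These 3 genes were the reason for singling out the line, so their levels are given as a description without a test.

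**Figure D1:**
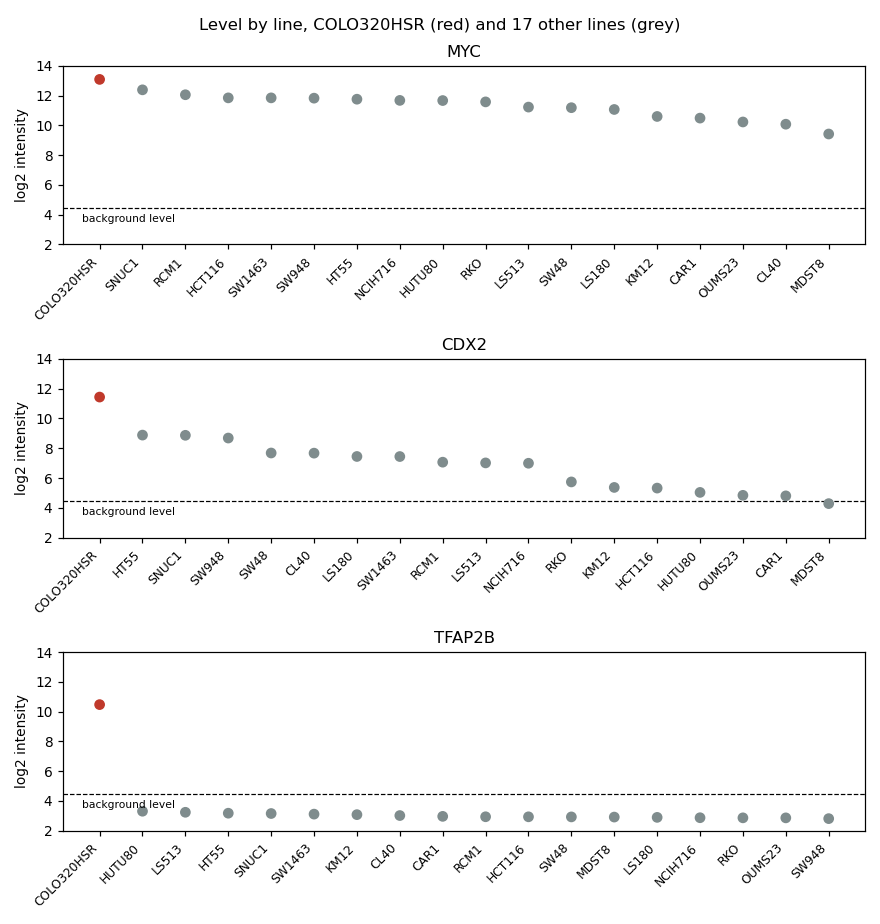
Log2 intensity (y axis) of MYC, CDX2 and TFAP2B in each line (x axis), with COLO320HSR in red at the left and the 17 other lines in grey by falling level; each point is 1 array and the dashed line is the background level of 4.46. MYC at 13.09 tops a panel that is high throughout, CDX2 at 11.44 stands above a graded series, and TFAP2B at 10.47 stands alone above background.

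The stretch just upstream of the start of CDX2 and of TFAP2B is shown because these genes stand out most among the transcription factors at issue. The 250 bases before each start are from RefSeq on GRCh38.p14, TFAP2B at chr6:50818621-50818870, plus strand, and CDX2 at chr13:27969316-27969565, minus strand, written 5′ to 3′ on the gene's strand. Capitals mark a match to TTTATNG, a form of the CDX recognition motif, on either strand.
TFAP2B: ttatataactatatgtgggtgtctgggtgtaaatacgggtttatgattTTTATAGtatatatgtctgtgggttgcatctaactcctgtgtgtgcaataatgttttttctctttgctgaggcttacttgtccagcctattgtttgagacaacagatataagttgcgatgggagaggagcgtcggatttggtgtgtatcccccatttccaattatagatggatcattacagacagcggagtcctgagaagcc
CDX2: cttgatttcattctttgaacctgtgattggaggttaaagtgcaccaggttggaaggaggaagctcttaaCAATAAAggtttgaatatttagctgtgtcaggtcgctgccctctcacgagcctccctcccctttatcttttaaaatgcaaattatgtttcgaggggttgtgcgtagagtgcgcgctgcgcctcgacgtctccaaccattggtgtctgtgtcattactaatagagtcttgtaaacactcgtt
Each holds 1 such match and none to the E-box CACGTG that MYC binds with MAX or to the AP-2 motif GCCNNNGGC. TTTATNG was found in 6.06% of 11032 promoters of this length among all tested genes. The TFAP2B stretch held 5 CG dinucleotides and the CDX2 stretch 10, where the median promoter held 20.

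Read from 1 probe set each, most genes around MYC did not follow its level. Of 30 measured genes, 15 on each side in gene order on chromosome 8, 19 were above background in some line. COLO320HSR was the highest line for 0 of them and the lowest for 2, while 8.16% of all tested genes were highest and 7.01% lowest in it. Their median difference was -0.29 log2 units, where that of all tested genes was -0.05. None of the 19 was called by limma (adjusted p under 0.05 after the Benjamini-Hochberg procedure over all 13609 genes), against 1.15% of all tested genes called higher and 0.507% called lower. At an unadjusted p under 0.05, 1 was higher and 1 lower.

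On the side before MYC, the nearest measured gene, CASC11, a noncoding RNA gene, was under background in every line and read 3.71 in COLO320HSR. The next 2 genes were high in COLO320HSR. POU5F1B, a retrogene of the pluripotency factor gene POU5F1, read 7.45 log2 units in COLO320HSR, against 4.52, 5.56 and 7.58 (lowest, median and highest) in the 17 other lines. It was second to NCIH716, with a difference of 1.89 ± 0.76 log2 units (SE; adjusted p = 0.414). LRATD2 read 11.93 in COLO320HSR and 3.69, 9.55 and 12.20 in the others, again second to NCIH716, with a difference of 2.64 ± 1.78 log2 units (SE; adjusted p = 0.836). Farther out, TRIB1, a pseudokinase that directs proteins to degradation, read 7.50 in COLO320HSR and 6.14, 9.88 and 12.66 in the others, and MTSS1, an actin and membrane-binding protein, read 4.90 in COLO320HSR and 4.18, 5.90 and 12.53 in the others. NSMCE2, a SUMO ligase of the SMC5/6 complex, was lowest in COLO320HSR at 7.71, only just under RCM1 at 7.72. SQLE, which catalyses a rate-limiting step of cholesterol synthesis, was the fifth highest at 11.16, against 9.53, 10.22 and 12.98 in the others. RNF139, TATDN1, NDUFB9, WASHC5, ZNF572, RNF139-DT and LOC101927657 lay within 0.50 log2 units of the mean of the others.

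On the far side the nearest measured gene was PVT1. It read 6.69 log2 units in COLO320HSR, against 5.34, 7.19 and 10.26 (lowest, median and highest) in the 17 other lines, so that COLO320HSR ranked twelfth of 18, with a difference of -0.49 ± 0.99 log2 units (SE; adjusted p = 0.965). Its 5 probe sets did not move together, with differences of -0.49 to 2.12, so the choice of probe set sets the direction for this gene. The probe set used gave the lowest of these differences. Another read 4.70 in COLO320HSR, above the highest other line at 4.19. CYRIB, ASAP1 and HHLA1 lay within 0.13 of the others' mean. EFR3A, which anchors a lipid kinase at the plasma membrane, was the lowest of all lines at 8.76, against 8.93, 9.94 and 10.81 in the others, with a difference of -1.13 ± 0.52 log2 units (SE; adjusted p = 0.546). Among the other lines, NCIH716 was highest for 10 of the 19 neighbours, including WASHC5 at 12.31, NSMCE2 at 12.60 and MTSS1 at 12.53, a run of high neighbours that COLO320HSR did not show.

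The network around MYC and its targets stood close to the panel. Gene lists, chosen with earlier results known, are described by the members above background in some line (606 of 680 measured memberships of 30 lists, from 738 listed), beside the median difference of -0.05 of all tested genes. Of 15 tested members of the MYC and MAX network other than MYC 0 were called, 2 were higher at an unadjusted p under 0.05, and the median difference was 0.16. MXI1, which competes with MYC for MAX, was highest in COLO320HSR at 10.60, against 8.11, 8.76 and 10.54 in the others, and MYCL, a MYC paralogue, read 4.53 in COLO320HSR and 3.89, 5.89 and 8.73 in the others. Of 31 tested MYC target and ribosome biogenesis genes 0 were called either and 1 was higher before adjustment, with a median of 0.11, where the other lines ran from -0.59 in CAR1 to 0.45 in HCT116. The largest difference among them was that of PPAT, the first enzyme of purine synthesis, at 1.21 ± 0.63 log2 units (SE; adjusted p = 0.654). LDHA, lactate dehydrogenase A, was the highest of the panel at 13.11, against 11.56, 12.58 and 12.72, a difference of 0.62 ± 0.28 log2 units (SE; adjusted p = 0.536).

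Around CDX2 on chromosome 13 the picture was similar. Of 30 measured genes 24 were above background, 0 were called (2 were higher at an unadjusted p under 0.05), COLO320HSR was highest for 3 and lowest for 1, and the median difference was 0.06. The measured genes next to CDX2 were LINC00543, a noncoding RNA gene, on one side and FLT3, a receptor tyrosine kinase of blood progenitors, on the other. FLT3 was under background in every line and read 3.03 in COLO320HSR. LINC00543 was highest in COLO320HSR and read 5.82 log2 units in COLO320HSR, against 3.02, 3.71 and 5.41 (lowest, median and highest) in the 17 other lines, a difference of 1.95 ± 0.79 log2 units (SE; adjusted p = 0.42). PDX1, a homeobox gene of pancreas and duodenum beyond LINC00543, was just above background at 4.55, against 3.56, 3.93 and 4.47. On the far side PAN3, a subunit of a poly(A) nuclease, read 9.30 in COLO320HSR and 8.46, 9.33 and 10.50 in the others, and POMP, the proteasome maturation factor, read 11.67 in COLO320HSR and 11.19, 11.65 and 12.10 in the others, so both sat in the middle of the panel.

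The third neighbour that was highest in COLO320HSR was WASF3, a regulator of actin assembly. It read 9.44 log2 units in COLO320HSR, against 2.85, 3.74 and 8.97 (lowest, median and highest) in the 17 other lines. Of the others, 8 were above background, with MDST8 next at 8.97, and the difference of 4.70 ± 2.01 log2 units (SE; adjusted p = 0.472) did not pass. RASL11A, a RAS-like GTPase, was lowest at 3.47, close to CAR1 at 3.52, and KATNAL1, a microtubule-severing subunit, differed by 1.61 ± 1.17 log2 units (SE; adjusted p = 0.863). CDK8, RNF6, RPL21, POLR1D, MTIF3, UBL3, HMGB1 and USPL1, genes expressed in all lines, differed by -0.26 to 0.21.

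**Figure D2:**
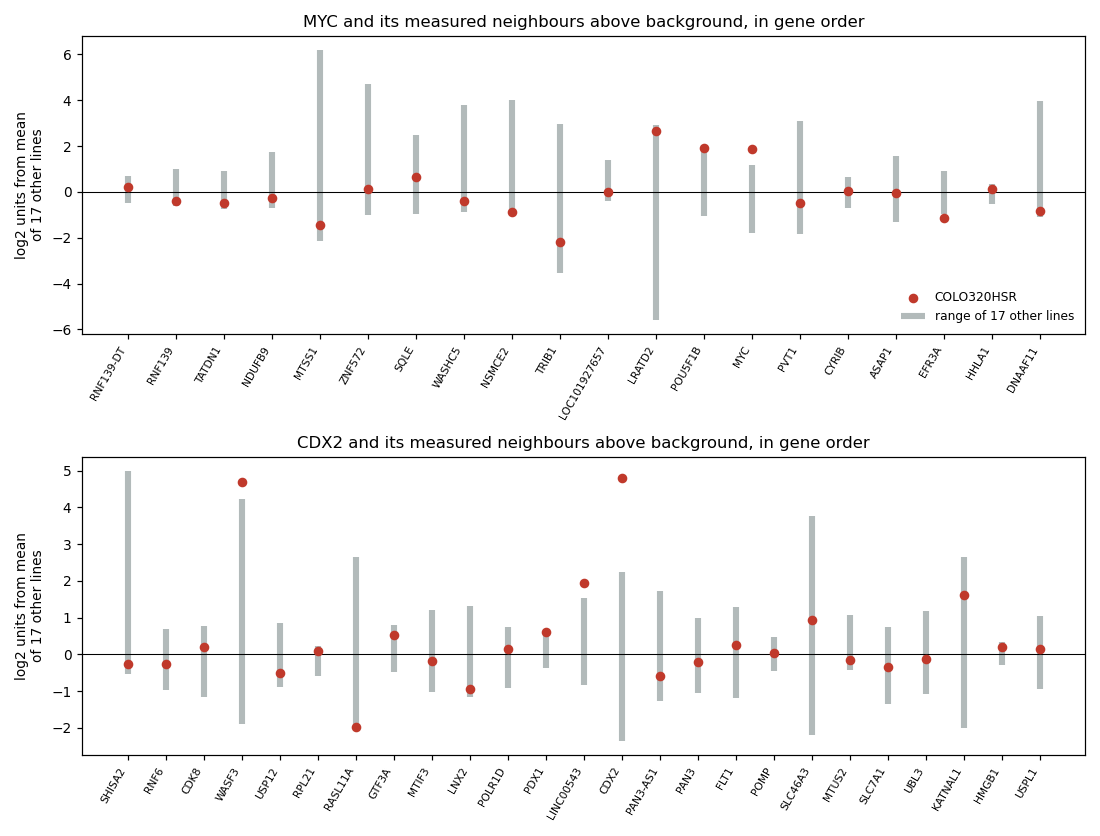
Difference from the mean of the 17 other lines in log2 units (y axis) for MYC, CDX2 and their neighbours above background in gene order (x axis, not to distance); red points are COLO320HSR and grey bars the lowest to highest of the other lines. MYC and CDX2 lie above their bars, POU5F1B and LRATD2 lie near the top of theirs, and most other neighbours lie within theirs, with WASF3, PDX1 and LINC00543 above and NSMCE2, EFR3A and RASL11A at or just below the lower end.

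High CDX2 was not accompanied by a high level of the other intestinal regulators. Of the 20 tested intestinal identity transcription factors other than CDX2, 0 were called (3 were lower at an unadjusted p under 0.05), 15 lay over 1 log2 unit below the mean of the others and 0 over 1 unit above. Their median difference was -1.86, the lowest of the 18 lines, with HUTU80 next at -1.49. With CDX2 included it was -1.63, and HUTU80 was lower at -1.72. MDST8 at -1.54 and RKO at -1.385 were close, so other lines shared the low level of this list. Over all tested genes 12.7% lay over 1 unit below and 11.2% above. ELF3, an epithelial ETS factor, was under background at 2.64, against 2.86, 9.02 and 10.91, so the lowest other line was undetected too. KLF4, which promotes goblet cell differentiation, was the lowest of the panel at 3.70, against 4.53, 8.85 and 10.81. EHF, another epithelial ETS factor, read 3.25 in COLO320HSR and 3.18, 10.78 and 11.53 in the others, so that COLO320HSR shared its background level with a few other lines.

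Most differentiated products were likewise at or under background. Among 25 tested enterocyte genes 0 were called, also before adjustment, and 4 were above background in COLO320HSR, with a median difference of -1.69. Of these genes 15 lay over 1 log2 unit below the others' mean and 1 over 1 unit above. Villin (VIL1), the actin bundler of microvilli, read 3.29 in COLO320HSR and 3.07, 8.18 and 11.72 in the others, and LGALS4, a gut lectin, read 3.88 in COLO320HSR and 3.20, 10.39 and 12.52 in the others. Among 18 goblet and secretory genes 0 were called, also before adjustment, and 4 were above background in COLO320HSR, with a median of -2.06. TFF3, a secreted trefoil peptide, read 3.53 in COLO320HSR and 3.35, 9.80 and 12.54 in the others, and AGR2, which folds mucins, read 3.18 in COLO320HSR and 2.81, 9.46 and 13.12 in the others. Both lists divide the panel, and COLO320HSR ranked twelfth and thirteenth from the top among the 18 lines, beside lines such as HCT116 and HUTU80, the lowest for the enterocyte and goblet lists.

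Over all genes, limma called 226 of 13609 in COLO320HSR (1.66%), 157 higher (1.15%) and 69 lower (0.507%). Before adjustment 707 higher and 465 lower genes had p under 0.05. COLO320HSR was the highest of all lines for each of the 157 and the lowest for each of the 69. For 66 of the higher genes every other line was at or under background, and for 37 of the lower genes COLO320HSR was. Many calls thus separate a detected gene from an undetected one, and their differences are limited by the background. Those 66 genes were tested only because COLO320HSR expressed them, and their SE and p rest largely on the spread of undetected values. Among the genes named below they include SV2C, SYT9, GPM6B, KCNH7, EPHA8, PPM1E, HDC, UTS2B, OGN, IDO2, CYP27C1, ERG, HOTAIR, ADAD1 and PAGE1. The differences of the called genes ran from 1.24 to 7.46 log2 units, with a median of 3.14, and from -1.04 to -9.42, with a median of -3.37. Of 88 higher genes with several probe sets 72 had all of them above the others' mean, and of 43 lower genes 33 had all of them below. Against the 7 other RPMI 1640 lines alone, 93 were called higher and 48 lower, and 67 and 30 of these were among the calls against all 17. With medium as a covariate in the fit the counts were 133 and 46.

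**Figure D3:**
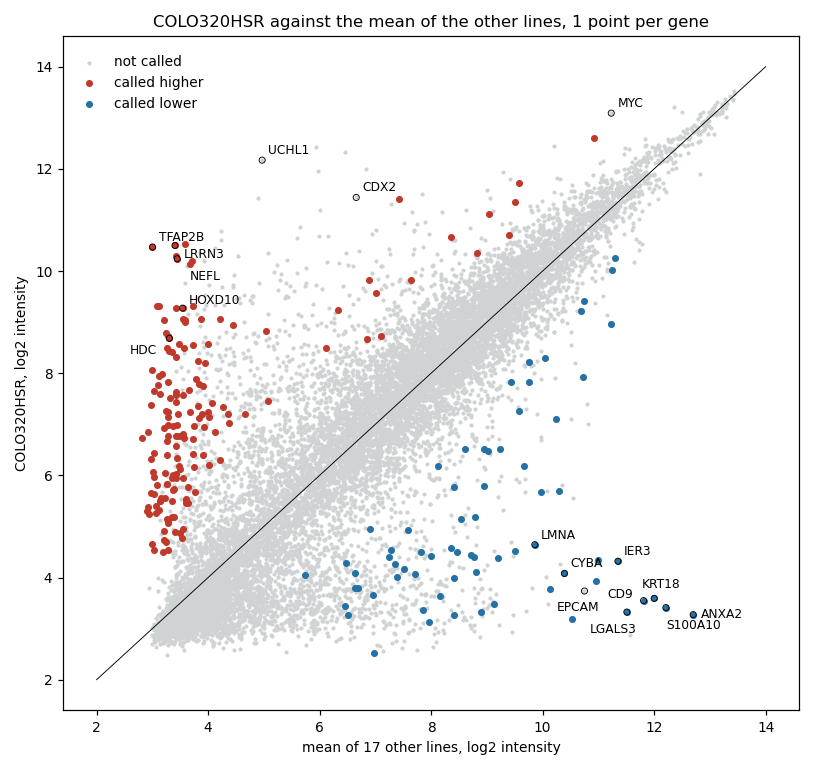
Log2 intensity of each tested gene in COLO320HSR (y axis) against the mean of the 17 other lines (x axis), with genes called higher in red, genes called lower in blue and the rest in grey; the line marks equal levels and circled genes are named. The called higher genes crowd at a mean of 3 to 4, the background of the other lines, while ANXA2, S100A10, CD9, KRT18 and LGALS3 lie at the lower right.

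A count that needs no distribution was made on the same arrays. It is not separate evidence, as a gene far beyond every other line is likely to be called. COLO320HSR lay at least 2 log2 units (4-fold) above every other line for 67 genes (0.492%), of which 64 were also called, and at least 2 units below every other line for 32 (0.235%), of which 29 were called. The other lines had 1 (SW948) to 148 (NCIH716) such genes above, with a median of 20, and 1 (RCM1) to 44 (OUMS23) below, with a median of 7. COLO320HSR was thus among the lines with many such genes but was not the most divergent.

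The genes that set COLO320HSR apart upward included several of neurons. LRRN3, a leucine-rich repeat membrane protein of neurons, read 10.50 log2 units in COLO320HSR, against 3.05, 3.30 and 5.41 (lowest, median and highest) in the 17 other lines. It was at background in all other lines but HUTU80, and rose by 7.09 ± 0.56 log2 units (SE; adjusted p = 7.04e-08). NEFL, the neurofilament light chain, read 10.24 log2 units in COLO320HSR, against 3.03, 3.29 and 6.11 (lowest, median and highest) in the 17 other lines, with NCIH716 the 1 other line above background, and rose by 6.80 ± 0.71 log2 units (SE; adjusted p = 4.25e-06). SV2C, a synaptic vesicle glycoprotein, read 9.31 in COLO320HSR and 2.86, 3.10 and 3.37 in the others, and SYT9, a calcium sensor of vesicle fusion, read 7.57 in COLO320HSR and 3.35, 3.53 and 3.82 in the others. GPM6B, a neuronal membrane proteolipid, rose by 4.84 ± 0.32 log2 units (SE; adjusted p = 5.42e-09). KCNH7, a voltage-gated potassium channel, rose by 4.82 ± 0.26 log2 units (SE; adjusted p = 4.51e-10), EPHA8, an ephrin receptor, by 4.93 ± 0.32 log2 units (SE; adjusted p = 5.42e-09), and PPM1E, a protein phosphatase, by 5.45 ± 0.34 log2 units (SE; adjusted p = 3.01e-09). These genes were named for their gap above every other line, so COLO320HSR was bound to be highest for each. It was highest for 8.16% of all tested genes.

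Other genes with a large rise encode secreted proteins or enzymes, among others. HDC, the enzyme that makes histamine, read 8.68 log2 units in COLO320HSR, against 2.99, 3.32 and 3.56 (lowest, median and highest) in the 17 other lines, and rose by 5.38 ± 0.26 log2 units (SE; adjusted p = 4.27e-11). UTS2B, a urotensin peptide precursor, read 8.07 in COLO320HSR and 2.83, 2.99 and 3.15 in the others. OGN, a small leucine-rich matrix proteoglycan, read 9.31 in COLO320HSR and 2.77, 3.10 and 3.51 in the others, and THBS4, a thrombospondin of the extracellular matrix, read 9.31 in COLO320HSR and 3.33, 3.70 and 4.97 in the others. These 4 were at background in the other lines, apart from THBS4 in OUMS23. IDO2, a tryptophan-degrading enzyme, rose by 3.93 ± 0.25 log2 units (SE; adjusted p = 4.05e-09), and CYP27C1, a cytochrome P450 that desaturates retinoids, by 3.92 ± 0.26 log2 units (SE; adjusted p = 5.42e-09). LIX1 rose by 6.88 ± 0.93 log2 units (SE; adjusted p = 0.000144), NUDT11, which hydrolyses diphosphoinositol polyphosphates, by 6.48 ± 0.81 log2 units (SE; adjusted p = 4.61e-05), and ITM2A, a type II membrane protein, by 5.85 ± 0.72 log2 units (SE; adjusted p = 4.3e-05). For each of these 3 genes 1 other line was above background, and in the fit on the RPMI 1640 lines alone the adjusted p was 0.0528 for ITM2A and 0.0544 for NUDT11.

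The transcription factors described next are members of the POU and ETS families. POU3F3, a neural POU factor, read 10.52 log2 units in COLO320HSR, against 3.03, 3.23 and 8.75 (lowest, median and highest) in the 17 other lines. NCIH716 was the 1 other line above background, and the rise of 6.93 ± 1.31 log2 units (SE; adjusted p = 0.00533) was lost against the RPMI 1640 lines alone (adjusted p = 0.288). POU4F1, a POU factor of sensory neurons, read 7.13 in COLO320HSR and 3.27, 3.66 and 4.88 in the others, and rose by 3.29 ± 0.49 log2 units (SE; adjusted p = 0.000421). These were the 2 called members of 20 tested neuroendocrine and neural transcription factors, whose median was 0.31, and 0.0080 over all measured members. The share called higher among all tested genes was 1.15%. ELAVL2, a neuronal RNA-binding protein of that list, was also highest in COLO320HSR, at 10.30 against 2.97, 3.45 and 8.76 in the others (adjusted p = 0.168, and 0.0253 with the mean of its probe sets). ERG, an ETS factor known from endothelium and blood, read 7.51 in COLO320HSR and 3.07, 3.28 and 3.88 in the others, and rose by 4.20 ± 0.28 log2 units (SE; adjusted p = 5.85e-09).

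The HOX genes, which give cells their position along the body axis and lie in 4 clusters, were examined after their values were seen. Of 27 tested HOX genes 11 were called higher and 0 lower, COLO320HSR was highest for 13, and the median difference was 1.88, while in the other lines the median ran from -0.63 in LS180 to 0.33 in HUTU80. Over all tested genes 1.15% were called higher and COLO320HSR was highest for 8.16%. HOXD3, HOXD10, HOXD11 and HOXC12 were at or under background in every other line, so they were tested only because COLO320HSR expressed them. Over all measured HOX genes the median difference was 1.53. The 11 called genes lay in 2 of the clusters. In the HOXD cluster HOXD1, HOXD3, HOXD4, HOXD9, HOXD10, HOXD11 and HOXD13 were called, and in the HOXC cluster HOXC9, HOXC11, HOXC12 and HOXC13. For HOXD1, HOXD3 and HOXD9 the lowest probe set showed no rise, with differences of -0.19, -0.04 and -0.04. HOXD10 read 9.27 log2 units in COLO320HSR, against 3.37, 3.57 and 3.70 (lowest, median and highest) in the 17 other lines, and rose by 5.73 ± 0.25 log2 units (SE; adjusted p = 1.66e-11). HOXD13, used in limb and hindgut, read 8.42 in COLO320HSR and 3.08, 3.21 and 5.50 in the others, and HOXD11 read 7.63 in COLO320HSR and 3.10, 3.44 and 3.62 in the others. HOTAIR, a long noncoding RNA transcribed within the HOXC cluster, read 7.76 in COLO320HSR and 2.86, 3.02 and 3.75 in the others, a rise of 4.66 ± 0.33 log2 units (SE; adjusted p = 1.49e-08). No HOXB gene, a cluster that most lines expressed, was called. HOXB7 read 8.03 in COLO320HSR and 6.12, 8.55 and 9.65 in the others, and HOXB8 read 4.76 in COLO320HSR and 3.81, 7.89 and 9.54 in the others. Calls for HOXC9 (adjusted p = 0.0478) and HOXC13 (adjusted p = 0.0413) were marginal and were lost on leaving out any of 13 and any of 12 lines (adjusted p up to 0.118 and 0.0662 over the alternatives).

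Cancer-testis antigens, germline proteins that some tumours express, contributed 3 higher calls among 10 tested members. Of all tested genes 1.15% were called higher. The members' median difference was 2.02. Over all 18 measured members the median was 0.10, and at a background level of 6 it was 0.77. CTAG2 read 10.13 log2 units in COLO320HSR, against 2.67, 3.11 and 8.83 (lowest, median and highest) in the 17 other lines, and rose by 6.47 ± 1.54 log2 units (SE; adjusted p = 0.0349). SNUC1 was nearest, and the call was lost without SW948, against the RPMI 1640 lines alone and with culture medium as a covariate (adjusted p between 0.000131 and 0.498 over the alternatives). PAGE1 read 5.63 in COLO320HSR and 2.84, 2.98 and 3.66 in the others, and rose by 2.61 ± 0.28 log2 units (SE; adjusted p = 5.63e-06). The third was SSX1 at 2.33 ± 0.41 log2 units (SE; adjusted p = 0.00272), named after its value was seen. MAGEA12 read 10.86 in COLO320HSR and 2.76, 3.36 and 10.54 in the others, just above NCIH716, and MAGEA6 was highest in NCIH716, at 12.05, with COLO320HSR just under it, so neither was called. ADAD1, a testis RNA-binding protein outside that list, read 7.57 in COLO320HSR and 3.06, 3.43 and 3.87 in the others, but a second ADAD1 probe set lay at the mean of the others. The second SSX1 probe set likewise showed no rise, with a difference of -0.11. PAGE1 was under background in every other line, so it was tested only because COLO320HSR expressed it.

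**Figure D4:**
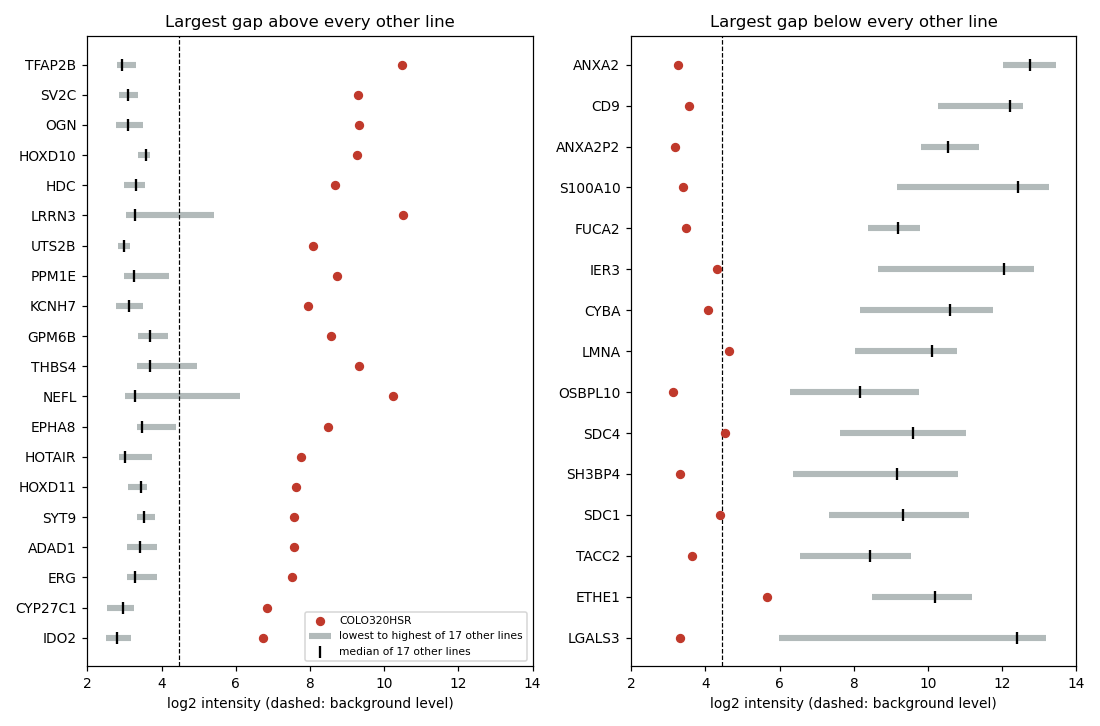
The 20 genes with the largest gap above every other line (left) and the 15 with the largest gap below (right), with log2 intensity on the x axis; red points are COLO320HSR, grey bars span the lowest to highest of the 17 other lines, black ticks are their medians and the dashed line is the background level. On the left TFAP2B to IDO2 sit 3 to 7 log2 units beyond bars near background, and on the right most red points lie left of the dashed line while every bar lies right of it.

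The lowest genes were led by annexin A2 and its partner. ANXA2, which binds phospholipid membranes in the presence of calcium, read 3.27 log2 units in COLO320HSR, against 12.02, 12.74 and 13.46 (lowest, median and highest) in the 17 other lines. All other lines expressed it strongly and lay close together, and it was not detected in COLO320HSR, a difference of -9.42 ± 0.39 log2 units (SE; adjusted p = 7.3e-12). S100A10, the S100 protein that forms a heterotetramer with annexin A2, read 3.41 log2 units in COLO320HSR, against 9.17, 12.43 and 13.27 (lowest, median and highest) in the 17 other lines, and fell by 8.80 ± 0.98 log2 units (SE; adjusted p = 1.03e-05). ANXA2P2, a processed pseudogene of ANXA2 whose probes may take up ANXA2 transcripts, read 3.19 in COLO320HSR and 9.82, 10.53 and 11.38 in the others, so it is not independent evidence. S100A11 and S100A16, calcium-binding proteins of the same family, read 3.94 and 4.35 in COLO320HSR, against medians of 11.41 and 11.34 in the others. HUTU80 came next for both at 4.49 and 5.29, and their calls (adjusted p = 0.0369 and 0.0365) were lost on leaving out any of 10 and any of 6 lines. Of 22 tested S100 and annexin genes these 4 were called lower and 0 higher, and COLO320HSR was lowest for 9. Of all tested genes 0.507% were called lower, 1.15% were called higher and 7.01% were lowest in COLO320HSR. The median difference of the 22 genes, -2.78, was the lowest of the 18 lines. HUTU80 was nearly as low at -2.63, while the 17 other lines had a median of 0.31.

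The region before the start of ANXA2 is shown because the gene had the largest fall. The 250 bases are from RefSeq on GRCh38.p14 at chr15:60397987-60398236, minus strand, written 5′ to 3′ on the gene's strand, with capitals for a match to the AP-2 motif GCCNNNGGC and, farther on, to the AP-1 motif TGANTCA.
ANXA2: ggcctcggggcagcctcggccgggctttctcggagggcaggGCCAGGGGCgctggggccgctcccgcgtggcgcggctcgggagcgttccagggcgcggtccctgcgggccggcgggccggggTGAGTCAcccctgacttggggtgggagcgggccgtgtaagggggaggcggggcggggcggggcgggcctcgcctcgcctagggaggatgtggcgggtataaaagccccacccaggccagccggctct
The stretch held 28 CG dinucleotides, above the median of 20. Over the called genes with a promoter in the table, TGANTCA was found, on either strand, in 4 of 55 lower genes (7.27%) and 3 of 122 higher genes (2.46%), and in 4.22% of all tested genes. GCCNNNGGC was found in 25.5% of lower and 27.0% of higher genes, close to 27.3% of all. TTTATNG was found in 7.27% of lower and 9.02% of higher genes, against 6.06%. The E-box CACGTG was found in 12 of 122 higher genes (9.84%), 0 of 55 lower genes, which allows a share of up to 5.45% by counting error alone, and 8.75% of all. Both strands were read, each promoter counted once per motif, and matches to different motifs could overlap. A match is only a run of letters in this window.

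Proteins of membranes and adhesion followed. CD9, a tetraspanin that organises membrane proteins, read 3.55 log2 units in COLO320HSR, against 10.27, 12.20 and 12.57 (lowest, median and highest) in the 17 other lines, and fell by 8.26 ± 0.69 log2 units (SE; adjusted p = 1.79e-07). LGALS3, the lectin galectin-3, read 3.32 log2 units in COLO320HSR, against 5.99, 12.40 and 13.18 (lowest, median and highest) in the 17 other lines. HUTU80 lay between, and the difference of -8.18 ± 2.03 log2 units (SE; adjusted p = 0.0461) was lost on leaving out any of 13 lines. The heparan sulphate proteoglycans SDC1 and SDC4 read 4.38 and 4.52 in COLO320HSR, against medians of 9.34 and 9.61 in the others, and differed by -4.81 ± 0.94 log2 units (SE; adjusted p = 0.00735) and -4.99 ± 0.94 log2 units (SE; adjusted p = 0.00532). CYBA, a subunit of the NADPH oxidase, read 4.08 in COLO320HSR and 8.16, 10.59 and 11.74 in the others, and SH3BP4, an adaptor of endocytosis, read 3.32 in COLO320HSR and 6.36, 9.16 and 10.80 in the others.

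Inside the cell, KRT18, the keratin of simple epithelia, read 3.59 log2 units in COLO320HSR, against 5.90, 12.71 and 13.37 (lowest, median and highest) in the 17 other lines. It fell by 8.41 ± 1.79 log2 units (SE; adjusted p = 0.0161), and HUTU80 was again the nearest line. LMNA, which encodes the nuclear lamins A and C, read 4.64 log2 units in COLO320HSR, against 8.02, 10.12 and 10.77 (lowest, median and highest) in the 17 other lines, a difference of -5.22 ± 0.77 log2 units (SE; adjusted p = 0.000394). IER3, an early-response gene induced by growth factor and stress signals, read 4.32 in COLO320HSR and 8.65, 12.04 and 12.85 in the others, a difference of -7.04 ± 1.34 log2 units (SE; adjusted p = 0.00587). PHLDA2, a pleckstrin-homology protein from an imprinted gene, fell by 6.36 ± 1.45 log2 units (SE; adjusted p = 0.0259). FUCA2, a fucosidase, fell by 5.65 ± 0.42 log2 units (SE; adjusted p = 3.44e-08), ETHE1, a mitochondrial enzyme of sulphide breakdown, by 4.30 ± 0.93 log2 units (SE; adjusted p = 0.0183), OSBPL10, an oxysterol-binding protein, by 4.84 ± 0.80 log2 units (SE; adjusted p = 0.0014), and TACC2, a centrosomal coiled-coil protein, by 4.52 ± 0.87 log2 units (SE; adjusted p = 0.00602). The weaker probe sets of CD9, CYBA, LMNA, PHLDA2, OSBPL10 and TACC2 included at least 1 that differed by under 0.25 log2 units in size, as did that of SYT9, so those genes rest on their strongest probe sets.

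Epithelial genes as a group were low in COLO320HSR, and a few other lines were low with it. Of 34 tested epithelial junction and adhesion genes 0 were called, 7 were lower at an unadjusted p under 0.05, 26 lay over 1 log2 unit below the others' mean, and the median difference was -3.72, where only MDST8 was lower at -4.79. EPCAM, an epithelial adhesion molecule, read 3.74 log2 units in COLO320HSR, against 3.75, 12.06 and 12.50 (lowest, median and highest) in the 17 other lines. COLO320HSR was lowest, level with MDST8 at 3.75, and the difference was -7.01 ± 2.76 log2 units (SE; adjusted p = 0.396). CDH1, encoding E-cadherin, read 3.50 in COLO320HSR and 3.16, 10.77 and 11.58 in the others. Of 7 simple epithelial keratins 1 was called lower (KRT18), where 0.507% of all tested genes were, and the median was -3.33. KRT8 read 4.32 in COLO320HSR and 4.19, 12.23 and 13.03 in the others. KRT19 read 3.48 in COLO320HSR and 3.39, 11.93 and 12.74 in the others.

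Of 6 tested factors of epithelial-mesenchymal transition 0 were called and 3 were higher at an unadjusted p under 0.05, with a median difference of 3.27, second to MDST8 at 4.94. The median was 1.27 at a background level of 4 and 0.21 over all 9 measured members. ZEB1, a repressor of E-cadherin, read 8.77 in COLO320HSR and 2.83, 3.43 and 10.66 in the others, and PRRX1, a mesenchymal homeobox factor, read 9.26 in COLO320HSR and 2.83, 3.15 and 9.34 in the others. Vimentin (VIM), the intermediate filament of mesenchymal cells, read 12.43 in COLO320HSR and 3.04, 3.44 and 13.19 in the others, while among 29 mesenchymal and matrix genes 0 were called, also before adjustment, and the median was -0.58. TGFBI, a matrix protein, was at background at 3.60. Of 23 tested neuroendocrine granule genes 0 were called, 2 were higher before adjustment, and the median was -0.51, against 3.62 in NCIH716. UCHL1, a ubiquitin hydrolase abundant in neurons, was the highest of the panel at 12.17, against 3.33, 3.71 and 11.36, with HUTU80 close behind. DDC, which makes serotonin and dopamine, was under background at 3.39, as it was in MDST8 at 3.42.

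Of the 8 tested genes of the AP-2 family and its cofactors other than TFAP2B, 0 were called and 1 was lower at an unadjusted p under 0.05. Their median difference was -1.43, the lowest of the panel. With TFAP2B included it was -0.94, and then -1.42 without HCT116 and -1.92 at a background level of 6. TFAP2A, the paralogue that most lines express, read 3.84 in COLO320HSR and 3.10, 6.79 and 10.16 in the others, and KCTD1 and KCTD15, which repress AP-2 activity, read 4.61 and 3.46, against medians of 6.70 and 6.01. Signalling lists were low or mixed. Of 25 genes of EGFR ligands and MAPK output 1 was called lower (IER3) and 19 lay over 1 log2 unit below. For all tested genes these shares were 0.507% and 12.7%. The list median of -2.16 was the lowest of the 18 lines. OUMS23 was nearly as low for this list, at -1.99. EREG, an EGFR ligand, read 2.62 in COLO320HSR and 2.46, 9.17 and 10.33 in the others, and EGFR itself read 4.01 in COLO320HSR and 4.47, 7.89 and 10.21 in the others, lowest of the panel. Of 29 WNT targets 0 were called and 3 were higher before adjustment, and members lay on both sides. APCDD1 and WIF1, secreted or membrane WNT inhibitors, were highest in COLO320HSR at 11.95 and 9.77, against highest values of 11.92 and 9.42 in the others, both in HT55. SOX9, a progenitor transcription factor, was under background at 3.38, as was the lowest other line, against 3.40, 10.02 and 11.80.

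Among metabolic lists, cholesterol and fatty acid synthesis stood highest of the 18 lines. Its 24 tested genes had 0 calls and 5 higher genes at an unadjusted p under 0.05. The median difference was 0.74, where the other lines ran from -0.87 in RKO to 0.51 in SNUC1. COLO320HSR was highest for 10 of the 24, against 8.16% of all tested genes. EBP, a sterol isomerase, read 11.82 in COLO320HSR and 9.17, 10.15 and 11.21 in the others, and HSD17B7, which reduces a sterol ketone, read 9.86 in COLO320HSR and 7.33, 8.58 and 9.19 in the others. For glycolysis and hypoxia the median was 0.26, with BNIP3, a mitochondrial autophagy receptor, highest at 11.43, against 3.06, 3.25 and 10.19. Glutathione and aldo-keto reductase genes had a median of -0.56, with GPX1, a glutathione peroxidase, at 4.02, against a median of 11.06 in the others. No member of these last lists was called. Before adjustment 3 of 27 glycolysis and hypoxia genes were higher, and 3 of 29 glutathione and reductase genes lower.

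In the remaining lists 0 genes were called in either direction. Before adjustment the lower genes numbered 4 for MHC class I, 4 for p53 targets and 1 each for YAP targets, caveolae and integrins and replication genes, and the higher genes 1 each for p53 targets, replication and leukocyte genes. Median differences were -0.76 for 17 genes of MHC class I presentation, -0.71 for 27 of the interferon response and -1.83 for 17 of caveolae and integrins, the lowest of the panel; with the mean of all probe sets the last was -1.0. They were -0.37 for 22 YAP and TEAD targets, -0.42 for 22 p53 targets, 0.10 for 18 cell-cycle inhibitors and G1 cyclins, 0.25 for 32 replication and mitosis genes and -0.16 for 14 oncofetal genes. HLA-C, a class I molecule, read 5.55 log2 units in COLO320HSR, against 6.66, 10.94 and 12.45 (lowest, median and highest) in the 17 other lines, the lowest of the panel (adjusted p = 0.168, and 0.034 without OUMS23). CDKN1A, the p21 cell-cycle inhibitor and a p53 target, read 4.24 in COLO320HSR and 4.13, 7.44 and 8.71 in the others, and GDF15, a stress-induced cytokine, read 2.94 in COLO320HSR and 3.86, 10.21 and 12.20 in the others (adjusted p = 0.219). Of leukocyte and endothelial genes 3 and 2 were tested, with medians of -0.47 and -0.22; over all measured members the leukocyte median was -0.15.

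**Figure D5:**
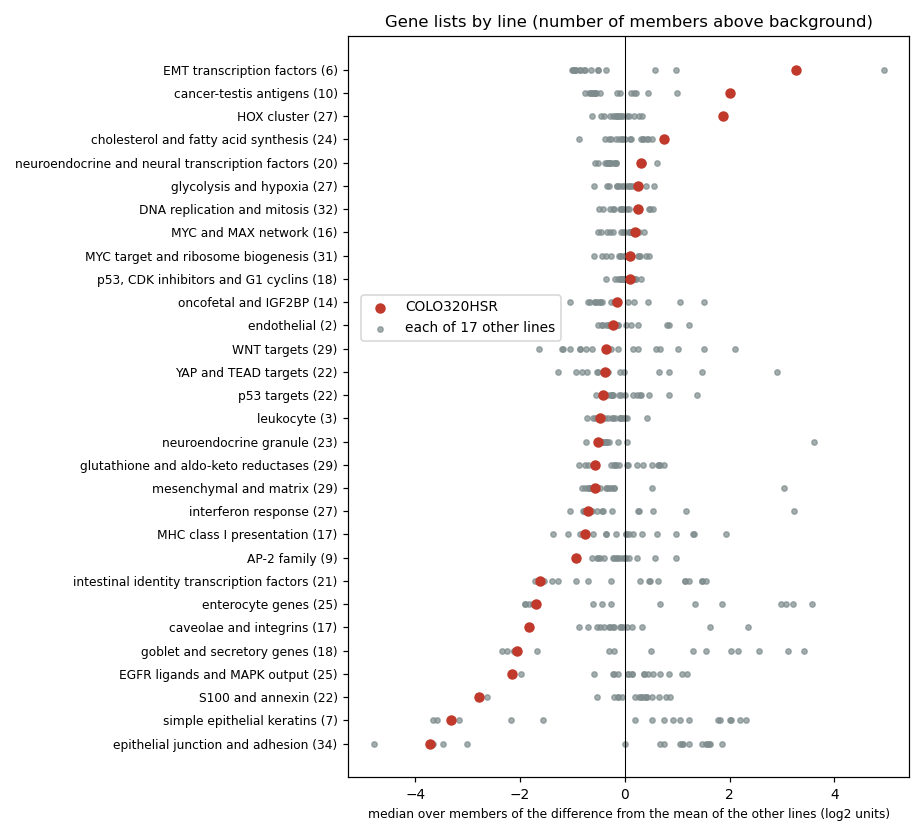
Median over the tested members of each gene list (rows, with the number of members) of the difference from a mean of lines, in log2 units (x axis). Red points are COLO320HSR against the mean of the 17 other lines. Grey points are each other line against the mean of the rest, without COLO320HSR. COLO320HSR is outermost for cancer-testis antigens, HOX genes and cholesterol synthesis on the high side and for AP-2, caveolae, EGFR and S100 lists on the low side, and is among the lowest lines for junction genes and keratins.

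Along the genome, 62 of 13490 windows of 5 consecutive tested genes had a median difference over 2 log2 units and 71 one below -2; as windows were chosen by value, they are described without a test. The highest was in the HOXD cluster (median 4.21). The next, on chromosome 16, held RPGRIP1L, FTO, IRX3, CRNDE and IRX5, with a median of 3.79 and COLO320HSR highest for all 5. IRX5, an Iroquois homeobox factor, read 9.06 in COLO320HSR and 2.81, 3.65 and 7.03 in the others, and rose by 4.84 ± 1.11 log2 units (SE; adjusted p = 0.026), and RPGRIP1L, a ciliary protein, rose by 3.79 ± 0.81 log2 units (SE; adjusted p = 0.0172); both calls were lost against the RPMI 1640 lines alone (adjusted p = 0.335 and 0.124), and that of IRX5 also with culture medium as a covariate. The other probe set of RPGRIP1L differed by only 0.03. IRX3 read 9.73 in COLO320HSR and 2.94, 3.37 and 8.26 in the others. On chromosome 7 ABCB4, a phospholipid transporter, read 8.32 in COLO320HSR and 3.04, 3.23 and 5.89 in the others, and rose by 4.90 ± 0.68 log2 units (SE; adjusted p = 0.000177). Its other probe set differed by 0.19, and the call was lost against the RPMI 1640 lines alone (adjusted p = 0.0952). The neighbouring gene ABCB1, the multidrug transporter, read 8.50 in COLO320HSR and 2.79, 4.10 and 9.61 in the others. The lowest windows held S100A4, S100A3, S100A2, S100A16 and S100A14 on chromosome 1 (median -4.29) and FXYD3, FXYD5 and LSR on chromosome 19 (median -4.29). LSR, a receptor of tricellular junctions, was under background at 2.98, as was the lowest other line, against 3.59, 8.63 and 10.09 (adjusted p = 0.125).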

How the data were processed

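The deposited values are log2 intensities per probe set. The authors made them with RMA and affy, as the submitters' processing notes name them, with no version given in the sources used here. Of 54613 probe sets, 40914 matched 1 gene and were used, 864 matched several and 12835 none. Of the 40914, 40858 had an Entrez ID in the RefSeq table of GRCh38.p14, which gave names and gene order. A gene's level is that of its probe set of highest mean, without further normalization. The background level of 4.46 is the 95th percentile over 102 probe sets from 61 measured genes (73 listed) that are restricted to other tissues. That set includes MBP, GCG and KERA, which were high in some lines.

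COLO320HSR was compared with 17 lines by limma 3.58.1 in R 4.3.3 (trend, two-sided, Benjamini-Hochberg over 13609 genes, adjusted p under 0.05). MYC, CDX2 and TFAP2B were described without a test. Neighbours were 15 measured genes on each side in gene order, without coordinates. Gene lists are described by counts and medians. The genes named were those 3, the 20 and 15 largest gaps, the 10 largest called differences in each direction, the neighbours, 4 members per list and the genes of the described windows. The genes and lists were chosen with earlier results of these data known, and the HOX list after its values were seen. The fit was also run on simulated data. Each gene was drawn from a normal distribution with the mean and SD of the other lines, also for COLO320HSR. That run therefore could not test whether COLO320HSR has the same error as the panel. Alternatives varied the probe set, scaling, background level, lines, limma settings and gap.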

Additional observations from a re-analysis of the deposited data

How the results depend on the processing

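No direction reversed among the counts, list medians and neighbour medians under the alternatives tried, apart from the oncofetal median, which crossed 0 on leaving out single lines. With the mean of all probe sets, 45 genes were called lower, 19 lay below every other line by the gap, and the medians were -1.0 for caveolae and integrins and 1.39 for HOX genes. A background level of 4 moved the EMT factor median to 1.27. A level of 6 left 98 genes called higher and gave medians of -1.92 for the AP-2 family, -3.77 for S100 and annexin genes, 0.77 for cancer-testis antigens and 2.35 for HOX genes, and no value for the endothelial list. Against RPMI 1640 lines alone, 93 genes were called higher and the gap counts were 119 above and 95 below. A gap of 1 gave 183 and 98 genes, and a gap of 3 gave 31 and 11. Over all measured members, medians were 0.21 for EMT factors, 0.0080 for neural transcription factors, 0.10 for cancer-testis antigens, -0.15 for leukocyte genes and 1.53 for HOX genes. Against the median of the other lines, cancer-testis antigens gave 2.53. No other count or median moved beyond its limit.

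Leaving out each line in turn gave 145 to 188 genes called higher, 54 to 88 called lower, 67 to 90 above and 32 to 41 below by the gap. List medians spanned -1.42 (without HCT116) to -0.79 for the AP-2 family and -0.21 to 0.24 for oncofetal genes. Of 58 called genes that are named, 37 kept the call in all 27 alternatives of the fit and 21 lost it in at least 1, 7 of them by leaving out a line. Among the fits that left out a line, HOXC9 kept it only without HCT116, MDST8, CAR1 or HUTU80. In those fits HOXC13 kept it only without SW48, MDST8, NCIH716, HUTU80 or OUMS23, and LGALS3 only without RKO, MDST8, NCIH716 or HUTU80. Among the same fits CLGN and S100A11 kept it only without HCT116, RKO, MDST8, NCIH716, CAR1, HUTU80 or OUMS23. S100A16 lost it without RCM1, HT55, SW948, SW1463, LS513 or LS180, and CTAG2 without SW948. HOXC11, HOXC12, HOXD1, SDC1 and ETHE1 lost it against the RPMI 1640 lines, OSBPL10 with the mean of probe sets, and SH3BP4 and TACC2 in both. With culture medium as a covariate, CLGN, CTAG2, HOXC11, HOXD1 and IRX5 were among those that lost it. The cause was not tested. Without MDST8, LSR, PRRX1, ZEB2 and SNAP25 were also called, and KLF4, LHX2 and LTBR without HUTU80. No paired analysis was possible because each line has 1 array and the groups share no replicate. Values at or under background have no order, so depth of signal limits what can be said of undetected genes.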

Other observations

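Some calls also lay near each other along the genome outside the HOX clusters. The stretches of 40 consecutive tested genes described here were sought after the data were seen. They were picked for their number of calls, so they were bound to hold several, and are given without a test. Among all tested genes 1.15% were called higher and 0.507% lower. Whether calls lie closer together than random placement would give was not tested. On chromosome 1, APH1A, PRPF3, TARS2, ENSA and VPS72 were called higher within 27 places, with differences of 1.31 to 2.56 log2 units. The median of the 40 genes was 1.23 in COLO320HSR, where the other lines ran from -0.18 in SW48 to 0.27 in CAR1, and 30 of the 40 lay above the others' mean. On chromosome 20, DLGAP4, RAB5IF, BLCAP and RALGAPB were called lower within 22 places, by -2.73 to -1.24. The median of those 40 genes was -1.0, against -0.60 in LS513 to 0.47 in RCM1, and 6 of the 40 lay above the others' mean.

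On chromosome 4, ADAD1, LINC02615, LINC00616, CLGN and RNF150 were called higher, and the stretch had a median of 0.73, against -0.31 in SNUC1 to 0.54 in NCIH716. On the X chromosome, SSX1, SUV39H1, PAGE1 and NUDT11 were called higher in a stretch with a median of 0.92, against -0.32 in SNUC1 to 0.21 in HUTU80. For 3 further stretches another line stood higher. The stretch of chromosome 10 with MEIG1, MRC1, CACNB2 and SPAG6 had a median of 0.72 in COLO320HSR and 0.84 in NCIH716, and that of the X chromosome with ITM2A, DACH2, PCDH19 and TMEM35A had 0.68 in COLO320HSR and 1.11 in RCM1. The stretch of chromosome 2 with AFF3, IL18R1, PANTR1, POU3F3 and LIMS1 had 0.17 in COLO320HSR and 0.46 in SW948. SUV39H1 encodes a histone methyltransferase of heterochromatin, and CLGN a chaperone of the testis.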
